A study of Drosophila melanogaster with 9 samples.

Results

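The genes described here encode the subunits of the proteasome, the protease that degrades ubiquitin-tagged proteins, and their RNA was measured in the whole central nervous system (CNS) of *Drosophila* larvae. The 40 genes were chosen by symbol (*Prosalpha*, *Prosbeta*, *Rpt* or *Rpn* followed by a digit) on probe sets that name 1 gene, out of 11982 genes named singly. With the probe sets that name several genes or none, each standing alone, there were 17104 in all. Each of the 40 was read by 1 probe set. They comprise 26 constitutive subunit genes and 14 testis-type paralogs, whose symbols end in R or T and which were kept apart.

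The 26S proteasome consists of a 20S core and a 19S regulatory particle that caps it. The core is a barrel of outer alpha rings, which gate entry, and inner beta rings, whose subunits beta1, beta2 and beta5 carry the proteolytic sites. The 19S base holds a ring of Rpt ATPases that unfold substrates with the scaffolds Rpn1 and Rpn2 and ubiquitin receptors, and the lid holds Rpn11, the enzyme that removes the ubiquitin chain. The complex is present in all cells of the fly, and neurons, glia and dividing neuroblasts all use it. In *Drosophila* several subunits also have a paralog that is expressed mainly in the male germ line.

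CNS tissue of 3 genotypes was compared, with 3 Affymetrix Drosophila Genome 2.0 arrays each. In HtlACT tissue the pan-glial driver *repo-Gal4* expressed an activated form of Heartless, an FGF receptor (*repoGal4>UAS-Htl[ACT]*). In InR tissue the same driver overexpressed the insulin receptor (*repoGal4>UAS-InR*). Control larvae carried the driver alone (*repoGal4/+*), so every group expressed Gal4 in glia. Larvae were wandering, of the third instar and raised at 25 °C, and the CNS of 10 to 15 larvae was pooled for each sample, from which 500 ng of RNA was labelled. The study used both transgenes to raise the number of glia, and the question addressed here is whether the proteasome genes differed between these tissues. The samples are described as triplicates and no more, so the p-values measure the spread between these samples, which may be partly technical. Transgenes were expressed in glia but RNA was taken from the whole CNS, and in such bulk samples fewer cells of a type and less RNA per cell cannot be told apart.

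Values are MAS5 signals, a brightness per probe set which the authors brought to a common trimmed mean of 500 for all arrays, and they were compared between tissues on a log2 scale. The 25th percentile of signal was 5.91 to 9.24 over the 9 arrays, and only the brighter 8552 of the 17104 were tested. *repo*, the pan-glial transcription factor gene, had signals of 8386, 8349 and 8359 in HtlACT tissue and 5510.0, 5461 and 5914 in InR tissue, against 3545, 3055 and 3449 in control tissue. *htl* was higher in HtlACT tissue by 2.72 on the log2 scale (limma adjusted p = 1.43e-05), whereas *InR* in InR tissue differed from control by -0.23 (adjusted p = 0.384), and where its probe set lies relative to the transgene was not determined. Signals summed over 11 measured pan-glial markers were 82147 to 92886 in HtlACT tissue, 56949 to 57910 in InR tissue and 28788 to 32356 in control tissue. Over 12 neuronal markers the sums were 16303 to 22068 in HtlACT tissue, 24104 to 27439 in InR tissue and 36327 to 37378 in control tissue. Markers of other tissues also differed. Of 5 tested fat body markers, the serum protein gene *Lsp2*, with *Fbp1* and *Fbp2*, stood high on the arrays InR 2, InR 3 and control 2 (*Lsp2* 7047, 6645 and 2858, against 213 to 516 on the other arrays), while *apolpp* and *FASN1* rose in HtlACT tissue by 1.18 and 1.32 (adjusted p = 6.41e-05 and 6.48e-05) and were not called in InR tissue. In InR tissue all 5 markers were above 0 (lowest 0.45), and 2 were higher by adjusted p with no fold limit, as were 15.3% of all tested genes. Summed over 7 measured fat body markers, signals were 30050 to 32826 in HtlACT tissue, 16928 to 38299 in InR tissue and 13274 to 20573 in control tissue. Of 7 tested hemocyte markers 0 rose and 1 fell in HtlACT tissue and 2 rose and 0 fell in InR tissue (sums over 10 of 1536 to 2540, 2611 to 4923 and 2088 to 2654 in HtlACT, InR and control tissue). Of 4 tested muscle markers 0 rose and 2 fell in HtlACT tissue and 2 rose and 0 fell in InR tissue (sums over 6 of 423 to 638, 1428 to 2034 and 550 to 685). Both falls in HtlACT tissue were lost after quantile normalization and both median centrings, and *sls* was called higher there with centring over dim genes too. Over all tested genes 13% rose and 19.2% fell in HtlACT tissue, and 9.24% rose and 6.57% fell in InR tissue. The part of these other tissues in the results below was not tested.

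None of the 26 constitutive proteasome genes rose or fell at 1.5-fold in either glial tissue in the limma fit, and none reached that fold at any p. A gene was called where it passed 1.5-fold and an adjusted p of 0.05. In HtlACT against control tissue 32.2% of all tested genes were called (13% higher and 19.2% lower). The share was 15.8% in InR against control tissue (9.24% higher and 6.57% lower). It was 11.9% in HtlACT against InR tissue (5.43% higher and 6.45% lower). The log2 fold changes of the 26 genes ran between -0.13 and 0.20 in HtlACT against control tissue, between -0.08 and 0.19 in InR against control tissue, and between -0.24 and 0.11 in HtlACT against InR tissue. With the signals as deposited, the 95% confidence interval of all 26 genes lay inside 1.5-fold (0.58 on the log2 scale) in each comparison. The interval bounds farthest from 0 were 0.36 in HtlACT against control tissue, 0.39 in InR against control tissue and -0.40 in HtlACT against InR tissue. These bounds depended on the scaling. With median centring over dim genes too, *Prosalpha4* in HtlACT against control tissue was 0.37 with an SE of 0.13, and its interval then reached past 1.5-fold. All 26 were among the genes tested, so none was lost to the filter on dim genes.

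**Figure D1:**
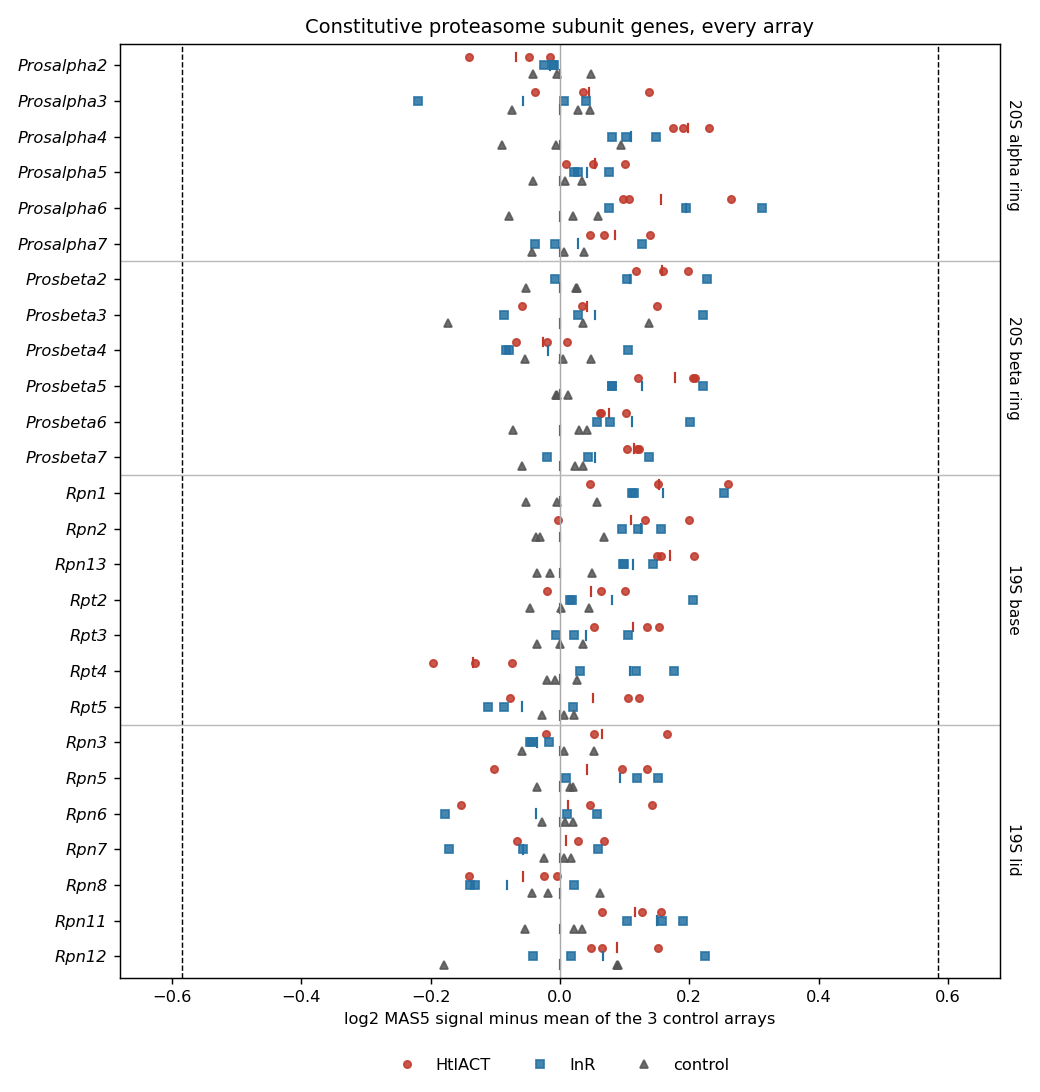
Log2 signal of each constitutive subunit gene on every array, minus the mean of its 3 control arrays; points are arrays (circles HtlACT, squares InR, triangles control), short bars are group means and dashed lines mark 1.5-fold. No array lay beyond 1.5-fold from the control mean for any of the 26 genes. HtlACT and control arrays did not overlap for 11 of the 26 genes, beside 63.8% of all tested genes. InR and control arrays did not overlap for 8, beside 52.6%.

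The medians of the 26 genes were 0.07 in HtlACT and 0.06 in InR tissue against control, beside -0.15 in HtlACT and -0.09 in InR tissue over all tested genes. In HtlACT tissue 22 of the 26 were above 0, and in InR tissue 18. The sign of this small shift depended on the scaling: after quantile normalization the median was -0.04 in HtlACT tissue with 5 of 26 above 0, and 0.01 in InR tissue with 13 of 26 above 0. Relative to the median of all tested genes the proteasome genes stood 0.22 higher in HtlACT tissue with the signals as deposited and 0.03 higher after quantile normalization, and in InR tissue 0.15 higher as deposited and 0.10 higher after quantile normalization. As deposited, all 26 genes were above that median in both glial tissues. The 2 glial tissues share their control arrays. No direction against 0 is given for the whole complex, and the values below are those of single genes with the signals as deposited.

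**Figure D2:**
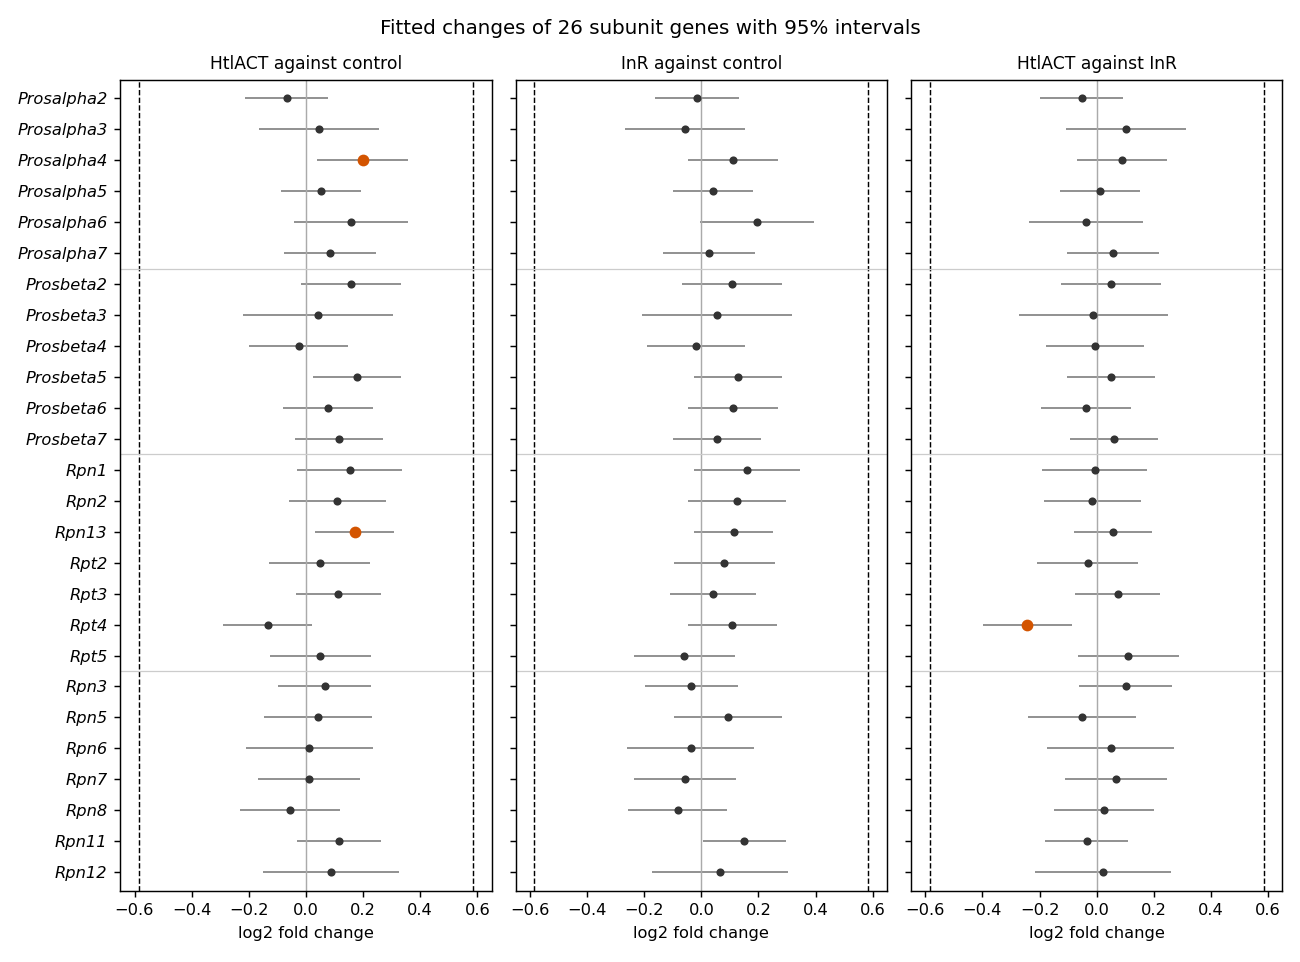
Log2 fold change (points) and 95% confidence interval (lines) of the 26 constitutive genes in each comparison, ordered as alpha ring, beta ring, 19S base and 19S lid; dashed lines mark 1.5-fold and orange points passed an adjusted p of 0.05 with no fold limit. With the signals as deposited, which are shown, every interval ends inside the dashed lines. The 3 orange points are *Prosalpha4* and *Rpn13* in HtlACT against control tissue and *Rpt4* in HtlACT against InR tissue.

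In the alpha ring, 6 of 7 subunit genes could be read singly, with median changes of 0.07 in HtlACT and 0.03 in InR tissue against control. *Prosalpha4*, a subunit of this ring, had signals of 5142, 5088 and 5292 in HtlACT tissue, 5000.1, 4766 and 4839 in InR tissue, and 4237, 4815 and 4491 in control tissue. All 3 HtlACT arrays were above all control arrays, while InR and control arrays overlapped. The difference of 0.20 ± 0.07 (SE, n = 3 each) in HtlACT tissue was the highest of the 26 genes in that comparison and passed an adjusted p with no fold limit (0.0376), as 56.5% of all tested genes did (21.4% higher and 35.2% lower). In InR tissue *Prosalpha4* differed from control by 0.11 ± 0.07 (adjusted p = 0.243). The adjusted p of this difference of 1.15-fold in HtlACT tissue passed in 7 of 22 other fits. Scaling moved its size, to 0.11 after quantile normalization (adjusted p = 0.223) and 0.31 after median centring (adjusted p = 0.00579).

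*Prosalpha6*, another alpha subunit, had 7285, 7333 and 8176 in HtlACT tissue, 7176, 7789.9 and 8455 in InR tissue, and 6445, 6905 and 7088 in control tissue. Every array of both glial tissues was above the control arrays, and the glial tissues overlapped with each other. Its difference of 0.16 ± 0.09 in HtlACT tissue (adjusted p = 0.158) did not pass, nor did that of 0.19 ± 0.09 in InR tissue (adjusted p = 0.115), which was the highest of the 26 genes there. *Prosalpha2* had 7536, 7713 and 7070.2 in HtlACT tissue, 7662, 7742 and 7731 in InR tissue, and 7763, 8052 and 7566 in control tissue. The groups overlapped throughout, and in InR against control tissue it was the gene nearest to no change (-0.01, 95% interval -0.16 to 0.13). *Prosalpha3* had 5481, 5204 and 5880.1 in HtlACT tissue, 4589.9, 5369 and 5497 in InR tissue, and 5079, 5448 and 5521 in control tissue, with 1 low array in the InR group and overlap of all groups. *Prosalpha5* and *Prosalpha7*, the remaining alpha subunits, differed by 0.05 and 0.08 in HtlACT and by 0.04 and 0.03 in InR tissue, with no adjusted p under 0.329. *Prosalpha5* had the narrowest range of all 26 genes, with 1.10-fold between its highest and lowest of 9 arrays.

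In the beta ring, 6 of 7 subunit genes were read, with medians of 0.10 in HtlACT and 0.08 in InR tissue against control. *Prosbeta5*, which carries the chymotrypsin-like site, had 8312, 7838 and 8329.5 in HtlACT tissue, 7622, 7627 and 8406 in InR tissue, and 7184, 7269.7 and 7177 in control tissue. The control arrays lay within a narrow band below every array of both glial tissues. Its difference from control was 0.18 ± 0.07 in HtlACT tissue (adjusted p = 0.0507) and 0.13 ± 0.07 in InR tissue (adjusted p = 0.171). Its probe set is of a kind that may match several transcripts, as are those of *Prosbeta7*, *Rpn6* and *Rpn13*. *Prosbeta2*, which carries the trypsin-like site, differed from control by 0.16 in HtlACT tissue (adjusted p = 0.109) and by 0.11 in InR tissue (adjusted p = 0.303). *Prosbeta3*, *Prosbeta4*, *Prosbeta6* and *Prosbeta7*, which have no active site, ran between -0.03 and 0.11 in HtlACT tissue and between -0.02 and 0.11 in InR tissue. *Prosbeta1*, the gene of the caspase-like subunit, was not analysed here.

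Among the 26 genes, the one difference between the glial tissues that passed the adjusted p lay in the 19S base. *Rpt4*, one of the ATPases that unfold substrates, had signals of 4486, 4666 and 4288 in HtlACT tissue, 5554, 5332 and 5021 in InR tissue, and 5005, 4888 and 4847 in control tissue. All 3 HtlACT arrays were below all control arrays and all 3 InR arrays were above them. It differed between HtlACT and InR tissue by -0.24 ± 0.07 (0.85-fold, adjusted p = 0.0336), where 24.9% of all tested genes passed with no fold limit (10.8% higher and 14.1% lower). Against control it differed by -0.13 (adjusted p = 0.124) in HtlACT tissue, the lowest of the 26 genes there, and 0.11 (adjusted p = 0.242) in InR tissue. Without single arrays its difference between the glial tissues ranged from -0.28 to -0.21 with an adjusted p of 0.0389 to 0.108, and 10 of 22 other fits passed. The difference was -0.18 and did not pass after median centring (adjusted p = 0.1001), and it turned to 0.055 with centring over dim genes too (adjusted p = 0.786).

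*Rpn13*, a ubiquitin receptor of the base, was singled out after its values were seen, because it passed the adjusted p. It had 4549, 4733 and 4570.2 in HtlACT tissue, 4388, 4393 and 4534 in InR tissue, and 4002, 4247 and 4059 in control tissue. The groups did not overlap, with HtlACT highest, InR between and control lowest. The difference from control was 0.17 ± 0.06 (adjusted p = 0.0393) in HtlACT tissue and 0.11 ± 0.06 (adjusted p = 0.172) in InR tissue, and the adjusted p in HtlACT tissue passed in 7 of 22 other fits. In HtlACT tissue it was 0.081 after quantile normalization (adjusted p = 0.270) and 0.28 after median centring (adjusted p = 0.00496). *Rpn1*, a scaffold that receives ubiquitin-like domains, had 3292, 3816 and 3542 in HtlACT tissue, 3799.8, 3451 and 3443 in InR tissue, and 3315, 3178 and 3074 in control tissue. The InR arrays were above the control arrays and 1 HtlACT array fell among them. Its difference from control in InR tissue was 0.16 (adjusted p = 0.153), and between the glial tissues it was the gene nearest to no change (-0.01, 95% interval -0.19 to 0.18). *Rpt5*, another ATPase, had 5069, 5131 and 4468 in HtlACT tissue, 4439.6, 4778 and 4360.1 in InR tissue, and 4623, 4731 and 4783 in control tissue. Its groups overlapped, with differences from control of 0.05 in HtlACT and -0.06 in InR tissue. The scaffold gene *Rpn2* and the ATPase genes *Rpt2* and *Rpt3* differed by 0.05 to 0.11 in HtlACT tissue and by 0.04 to 0.12 in InR tissue, none with an adjusted p under 0.17. *Rpt1*, *Rpt6* and *Rpn10* were not analysed here.

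In the lid, 7 genes of the rule were read, with medians of 0.04 in HtlACT and -0.04 in InR tissue against control. *Rpn11*, the deubiquitinating enzyme of the lid, differed by 0.12 (adjusted p = 0.153) in HtlACT tissue and by 0.15 (adjusted p = 0.098) in InR tissue. Its arrays in both glial tissues were above all control arrays. *Rpn8*, the partner of Rpn11, had 3955, 4344 and 4284 in HtlACT tissue, 3981, 3959 and 4425 in InR tissue, and 4227, 4302 and 4551 in control tissue, and its groups overlapped. Its -0.08 (adjusted p = 0.428) was the lowest value in InR against control tissue. *Rpn7*, a scaffold subunit of the lid, had 3629, 3872 and 3985 in HtlACT tissue, 3372, 3653 and 3957 in InR tissue, and 3735, 3846 and 3817 in control tissue. In HtlACT against control tissue it was the gene nearest to no change (0.01, 95% interval -0.17 to 0.19). *Rpn3*, *Rpn5*, *Rpn6* and *Rpn12*, the other scaffold subunits read, differed by 0.01 to 0.09 in HtlACT tissue and by -0.04 to 0.09 in InR tissue. *Rpn9* was not analysed here. *Sem1*, a small lid subunit whose symbol lies outside the rule, differed by -0.03 in HtlACT tissue (adjusted p = 0.776) and by 0.18 in InR tissue (adjusted p = 0.078).

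*Prosalpha1* was read only by a probe set that also names its paralog *Prosalpha1R*, so the 2 genes cannot be told apart and it was left out of all counts above. The values were looked at after the others were known. Its signals were 8639, 8192 and 8675 in HtlACT tissue, 10153, 10816 and 11008 in InR tissue, and 10214, 10566 and 10004 in control tissue. All HtlACT arrays were below all arrays of the other groups. The probe set differed in HtlACT tissue from control tissue by -0.27 ± 0.06 (adjusted p = 0.00785) and from InR tissue by -0.33 ± 0.06 (adjusted p = 0.00946), both short of 1.5-fold, and differed by 0.05 (adjusted p = 0.548) between InR and control tissue.

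Groups that did not overlap were counted for all 26 genes. In HtlACT against control tissue 10 genes were higher and 1 (*Rpt4*) lower without overlap, beside 24.1% and 39.7% of all tested genes (63.8% together). In InR against control tissue 8 were higher and 0 lower, beside 20.5% and 32.1% (52.6% together). In HtlACT against InR tissue 2 (*Prosalpha4* and *Rpn13*) were higher and 1 (*Rpt4*) lower, beside 16.8% and 25% (41.8% together). In InR against control tissue none of the 26 passed by adjusted p with no fold limit, where 36.7% of all tested genes did (15.3% higher and 21.4% lower). At an unadjusted p of 0.05 the same comparison passed 1 of the 26, *Rpn11*, beside 46.9% of all tested genes.

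**Figure D3:**
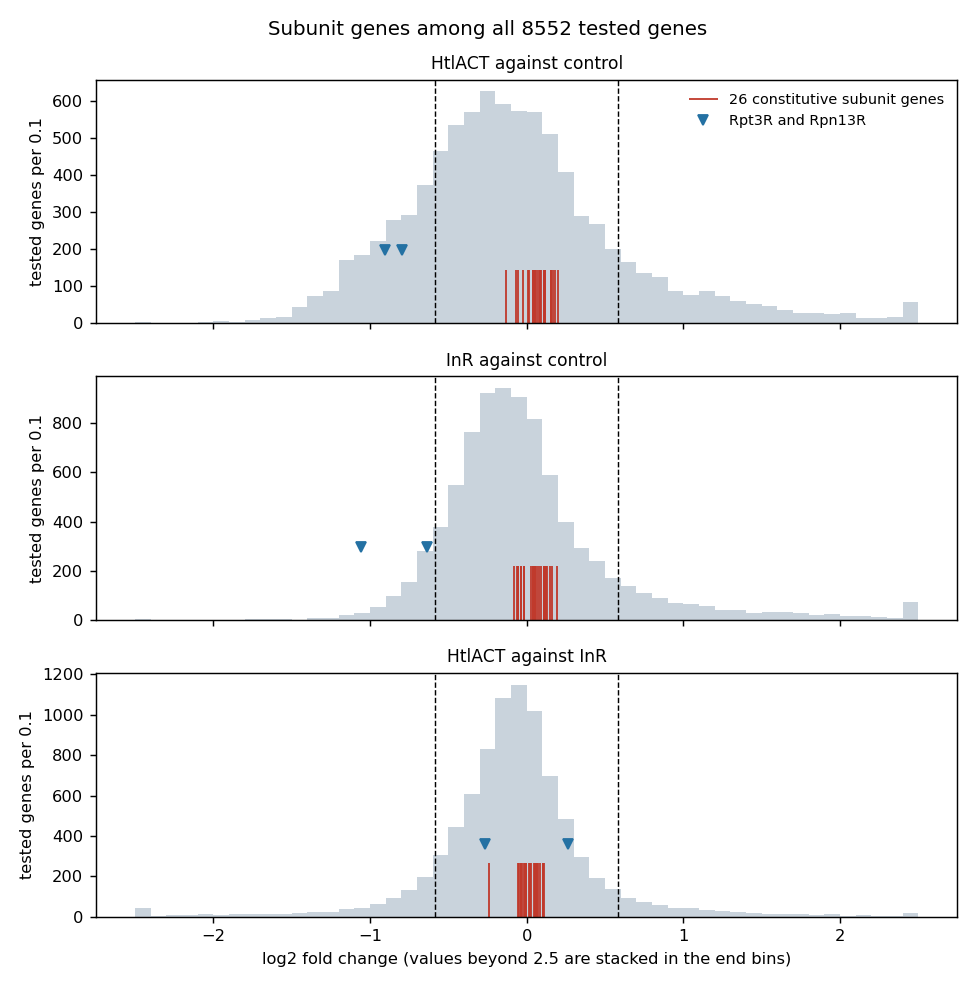
Distribution of log2 fold changes over all 8552 tested genes (grey bars, number of genes per 0.1) in each comparison, with the 26 constitutive subunit genes as red lines and the testis-type paralogs *Rpt3R* and *Rpn13R* as blue triangles; dashed lines mark 1.5-fold. The red lines span -0.13 to 0.20 in HtlACT against control, -0.08 to 0.19 in InR against control and -0.24 to 0.11 in HtlACT against InR tissue, inside the dashed lines.

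The proteasome genes also varied little between arrays of one group. Their median standard deviation within groups was 0.072 on the log2 scale, beside 0.148 over all tested genes and 0.098 over the 639 tested genes in the same range of mean signal. The median range over all 9 arrays was 0.24 for the proteasome genes and 0.57 for those 639 genes. The widest range was that of *Rpn12*, with 1.32-fold between 5866 on array InR 3 and 4439 on array control 1. Of the 639 genes, 26% were called in HtlACT against control tissue, 11.3% in InR against control tissue and 9.23% in HtlACT against InR tissue, and none of the 26 proteasome genes was. Calls were thus common among genes of like brightness.

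Some arrays were the highest or the lowest of the 9 for several subunits. Control 1 was the lowest of the 9 arrays for 11 of the 26 genes and control 3 for 6, whereas InR 3 was the highest for 9 and HtlACT 2 for 7. These 2 high arrays, picked because they were the highest for the most genes, differed in which particle they favoured. InR 3 was the highest array for 7 of 12 core genes and 2 of 14 genes of the 19S particle, and HtlACT 2 for 0 core genes and 7 genes of the 19S particle. The median of the core genes minus that of the 19S genes, each gene as its deviation from its own mean, was 0.05, -0.08 and 0.07 on the HtlACT arrays, -0.03, -0.01 and 0.05 on the InR arrays, and -0.08, -0.02 and 0.02 on the control arrays. These ranges overlapped between the 3 genotypes. Control 1, InR 3 and HtlACT 2 had median deviations of -0.07, 0.07 and 0.04 over the 26 genes, beside 0.07, -0.004 and -0.08 over all tested genes. Other complexes had -0.05, 0.14 and -0.08 (35 ribosomal protein genes), -0.05, 0.13 and -0.10 (8 CCT chaperonin genes) and -0.37, 0.11 and 0.13 (17 vacuolar ATPase genes). Highest and lowest arrays were not counted over all tested genes. Whether the pattern is particular to the proteasome was not tested.

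Among the testis-type paralogs 1 gene, *Rpt3R*, fell in both glial tissues. Only 2 of the 14, *Rpt3R* and *Rpn13R*, were bright enough to be tested. The other 12 had signals between 0.632 and 27.3 on every array, under the lowest mean tested of 35.1, and no comparison was made for them. *Rpt3R*, the paralog of the ATPase gene *Rpt3*, had signals of 155, 137 and 181 in HtlACT tissue and 118, 162 and 117 in InR tissue, against 245, 283 and 292 in control tissue. Both glial tissues lay below every control array and overlapped with each other. *Rpt3R* fell by 0.80 on the log2 scale in HtlACT tissue (0.576-fold, SE 0.16, adjusted p = 0.00299) and by 1.06 in InR tissue (0.479-fold, SE 0.16, adjusted p = 0.00185). It was the only one of the 28 tested proteasome genes to be called, where 19.2% of all tested genes fell in HtlACT tissue and 6.57% in InR tissue. HtlACT and InR tissue differed by 0.26 (95% interval -0.10 to 0.62, adjusted p = 0.252). Over the same arrays *Rpt3* itself differed from control by 0.11 in HtlACT and 0.04 in InR tissue, and neither passed. Of the arrays high in *Lsp2*, leaving out control 2 and InR 2 gave -1.19 in InR tissue (adjusted p = 0.00865). Leaving out InR 3 as well gave -1.18 (adjusted p = 0.0552), with a single InR array whose spread was taken from the other groups.

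**Figure D4:**
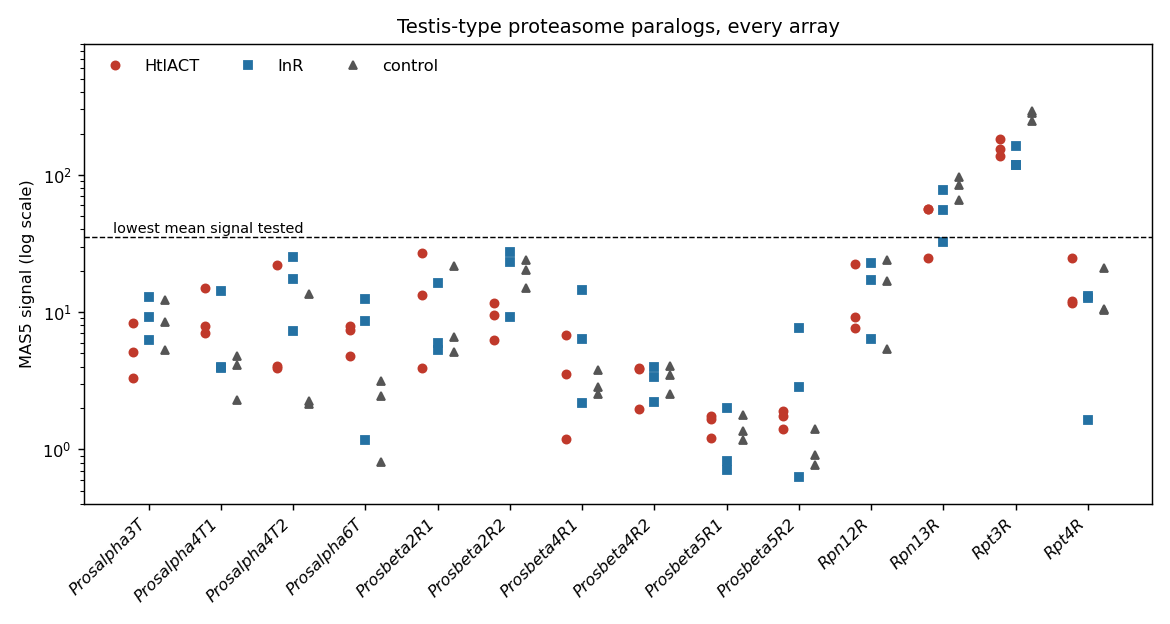
MAS5 signal (log scale) of the 14 testis-type paralogs on every array (circles HtlACT, squares InR, triangles control); the dashed line is the lowest mean signal tested, 35.1. *Rpt3R* lies above the line and *Rpn13R* on both sides of it, the control arrays of *Rpt3R* stand above all others, and the other 12 genes stay at 27.3 or less.

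*Rpn13R*, the paralog of the ubiquitin receptor gene *Rpn13*, had 25.0, 56.7 and 56.6 in HtlACT tissue, 55.8, 32.4 and 77.8 in InR tissue, and 65.2, 84.2 and 96.3 in control tissue. The HtlACT arrays were below the control arrays, and the InR arrays overlapped with them. It differed from control by -0.91 ± 0.40 in HtlACT tissue (95% interval -1.83 to 0.01, adjusted p = 0.0849) and by -0.64 ± 0.40 in InR tissue (95% interval -1.56 to 0.28, adjusted p = 0.246), and neither passed. Genes of the male germ line were measured for comparison. Of 15 testis markers, 10 were too dim to test, and the summed signal of the 15 was 487 to 582 in HtlACT tissue, 569 to 660 in InR tissue and 596 to 692 in control tissue. Of the 5 tested, 0 rose and 2 fell in HtlACT tissue and 0 rose and 1 fell in InR tissue. Over all tested genes 13% rose and 19.2% fell in HtlACT tissue, and 9.24% rose and 6.57% fell in InR tissue. *can*, a meiotic arrest gene, fell by 1.15 in HtlACT tissue (adjusted p = 0.00533) and by 0.81 in InR tissue (adjusted p = 0.039), and *betaTub85D*, the testis beta-tubulin, fell by 0.98 in HtlACT tissue (adjusted p = 0.00412) and differed by 0.04 in InR tissue (adjusted p = 0.907). *mia*, another meiotic arrest gene, differed the other way, by 0.07 in HtlACT tissue (adjusted p = 0.454) and by 0.31 in InR tissue (adjusted p = 0.0188), and *bam* and *twe* did not pass in either tissue. The spermatid gene *dj* was at 4.55 or less on every array, and the part of germ-line RNA in the *Rpt3R* difference was not tested. *Rpt3R* overlaps *Alg12* in the gene table, and *Alg12* differed by 0.58 in HtlACT and by 0.32 in InR tissue, the opposite direction. Whether the *Rpt3R* probe set also reads *Alg12* RNA was not determined.

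Factors that act with the proteasome were measured from fixed lists. Of 8 tested genes for activators, inhibitors and assembly or associated factors, none passed 1.5-fold in either glial tissue as deposited, and 1 (*Uch-L5*) was called lower in InR tissue with centring over dim genes too. *Uch-L5*, a deubiquitinase that docks on the 19S particle, had 2094, 2016 and 1950.2 in HtlACT tissue and 1955, 1954 and 1868 in InR tissue, against 2696, 2679 and 2574 in control tissue. The groups were fully apart from control, and its differences of -0.39 in HtlACT tissue (adjusted p = 0.00106) and -0.46 in InR tissue (adjusted p = 0.00124) were short of 1.5-fold. *Usp14*, the other docking deubiquitinase, differed in the opposite direction by 0.18 in HtlACT tissue (adjusted p = 0.0336) and 0.24 in InR tissue (adjusted p = 0.0191). *ntc*, an F-box gene whose product activates proteasomes in *Drosophila*, differed by 0.37 in HtlACT tissue (adjusted p = 0.0179) and 0.35 in InR tissue (adjusted p = 0.0346). *Pomp*, the chaperone of core assembly, differed by -0.08 in HtlACT tissue (adjusted p = 0.698).

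Of 6 genes that regulate transcription of proteasome genes, 1 was called. *Keap1*, which restrains the transcription factor Cnc, had 146, 182 and 117 in HtlACT tissue, 208, 175 and 196 in InR tissue, and 272, 219 and 245 in control tissue. It fell by 0.75 in HtlACT tissue (adjusted p = 0.00521), a call lost after quantile normalization and after centring over dim genes too, and differed by -0.34 (adjusted p = 0.134) in InR tissue. *cnc*, which encodes the fly relative of the Nrf factors that drive proteasome genes, differed by -0.14 in HtlACT tissue (adjusted p = 0.641) and 0.11 in InR tissue (adjusted p = 0.756). Its partner gene *maf-S* passed the adjusted p alone, with differences from control of -0.47 in HtlACT tissue (adjusted p = 0.000734) and -0.41 in InR tissue (adjusted p = 0.0034).

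Calls in the next lists stand beside 13% of all tested genes higher and 19.2% lower in HtlACT tissue, and 9.24% higher and 6.57% lower in InR tissue. Of 22 tested genes of cullin-RING and anaphase-promoting ligases, 0 rose and 2 fell in HtlACT tissue and 0 rose and 1 fell in InR tissue. Their medians were -0.35 in HtlACT and -0.23 in InR tissue. *SkpB*, an adaptor of these ligases, fell by 1.04 in HtlACT tissue (adjusted p = 0.000747) and by 0.80 in InR tissue (adjusted p = 0.00577), and was called under every scaling tried. *mr*, a subunit of the anaphase-promoting complex, fell by 0.66 in HtlACT tissue (adjusted p = 0.00105), a call lost under each other scaling, and under both median centrings *fzr*, an activator of that complex, was called higher in HtlACT tissue. Summed over 11 neuroblast and cell cycle markers, signals were 19471 to 20631 in HtlACT tissue, 18966 to 20517 in InR tissue and 24624 to 27403 in control tissue, and their part in the ligase differences was not tested. Of 14 deubiquitinases 0 rose and 2 fell in HtlACT tissue, *Usp7* by 0.84 (adjusted p = 0.0291) and *not* by 0.59 (adjusted p = 0.00334), and none was called in InR tissue. The *Usp7* call was lost under each other scaling and the *not* call under median centring. Of 12 genes of the TER94 segregase and its partners, 1 rose in HtlACT tissue (*Der-2*, a gene of the endoplasmic reticulum, by 0.66 with adjusted p = 0.000241) and 1 fell (*casp*, a ubiquitin-binding adaptor, by 0.61 with adjusted p = 0.0108). Under both median centrings *Herp*, *Der-1* and *Der-2* were called higher in HtlACT tissue and *casp* was not called. None of these 12 was called in InR tissue, and none of 7 ubiquitin and E1 genes, 7 E2 genes and 10 chaperone genes was called in either tissue, although the chaperone gene *Hsp60A* was called higher in HtlACT tissue under both median centrings and the E2 gene *Ubc6* with centring over dim genes too.

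Other large complexes were set beside the proteasome. Of 35 tested ribosomal protein genes 0 rose and 2 fell in HtlACT tissue (*RpS19b* and *RpS5b*), none was called in InR tissue, and the medians were 0.07 in HtlACT and 0.04 in InR tissue. This set was taken by symbol with paralogs left in, whereas the testis-type paralogs of the proteasome were kept apart. *RpS19b* and *RpS5b* carry the suffix b of a paralog, so the sets are unlike on this point. Of 8 genes of the CCT chaperonin 0 rose and 1 fell in HtlACT tissue (*CCT2*) and none was called in InR tissue, with medians of 0.01 in HtlACT and 0.15 in InR tissue. The *RpS19b* call was lost under each other scaling and the *CCT2* call under both median centrings. Of 17 tested genes of the vacuolar ATPase, a proton pump, 6 rose and 2 fell in HtlACT tissue and 5 rose and 1 fell in InR tissue. Its medians were 0.45 in HtlACT and 0.37 in InR tissue. Of all tested genes, 13% rose and 19.2% fell in HtlACT tissue, and 9.24% rose and 6.57% fell in InR tissue. Over the other scalings 5 to 9 of the vacuolar ATPase genes rose and 1 to 2 fell in HtlACT tissue, and 2 to 5 rose and 0 to 1 fell in InR tissue. The counts of these complexes are descriptions and the differences between complexes were not tested.

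**Figure D5:**
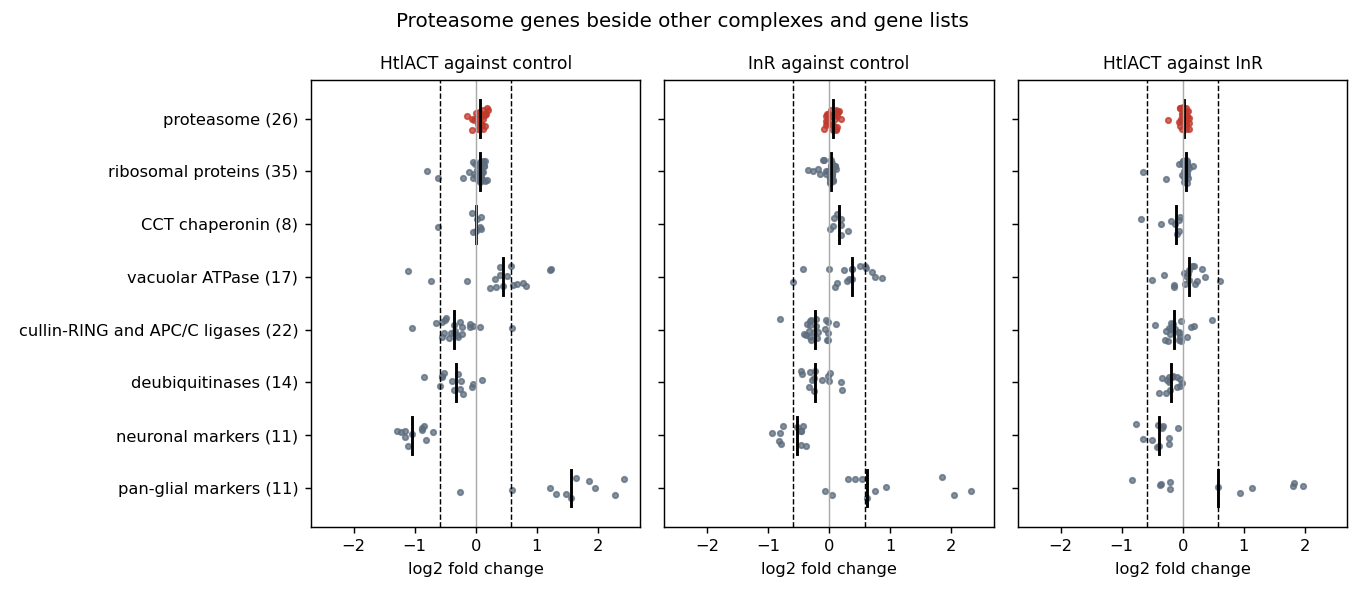
Log2 fold change of single genes (points) with the median of each set (black bars) for the 26 proteasome genes (red) and other complexes and lists (grey, number of genes in brackets) in each comparison; dashed lines mark 1.5-fold. All proteasome points lie between the dashed lines, while pan-glial markers extend to the right (10 of 11 called in HtlACT against control tissue) and neuronal markers to the left (11 of 11 called).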

How the data were processed

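RNA from 9 larval CNS samples was hybridised to Affymetrix arrays. The authors made the deposited values with MAS5 in Affymetrix Expression Console (version not given in the sources used here), as linear signals (intensity) per probe set scaled to a trimmed mean of 500. The study's detection calls were set aside. After removal of 183 controls from 18952 probe sets, 13647 name 1 gene, of whose identifiers 13544 were found in a gene table used for names only. A gene was read by its brightest probe set (mean log2 signal over all arrays), and probe sets naming several genes or none stood alone. A model of 3 groups was fitted with limma 3.58.1 in R 4.3.3, with 6 residual degrees of freedom and Benjamini-Hochberg adjustment over all 8552 tested, and tested on simulated data. SAM, which the study used, was not repeated.

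The members, lists and rules were chosen with earlier results of these data known. Signals of every array are given for called members, the 2 largest increases and decreases, the gene nearest to no change, and tested testis-type paralogs. Deviations of same-numbered arrays correlated at 0.50, 0.37 and 0.23 between InR and control. Not all did so between HtlACT and control (-0.04, -0.06 and 0.20) or between HtlACT and InR (-0.04, -0.17 and 0.38). The labels give no pairing and the main fit was unpaired, also for InR against control. The replicate number entered only in an alternative fit, as a block over all arrays. Alternatives were other scalings, filters, call limits, a pseudocount of 16, limma options, the replicate block, means over probe sets and arrays left out. Figures were drawn with matplotlib.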

Additional observations from a re-analysis of the deposited data

Results flagged for a closer look

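*Rpt4* differed between the glial tissues by a test of that difference, at -0.24 on the log2 scale in HtlACT against InR tissue, with every HtlACT array below and every InR array above the control arrays. Its adjusted p did not pass after median centring (0.1001), and the direction turned with centring over dim genes too (0.055, adjusted p = 0.786). Groups of 3 arrays are too small for a test of single outlying arrays.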

How the results depend on the processing

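No constitutive gene passed 1.5-fold in any comparison under any setting. *Rpt3R* was the 1 called gene in each glial tissue without any single array and under the replicate block, which changed no call at 1.5-fold: counts with the block stayed at 1, 1 and 0 in HtlACT against control, InR against control and HtlACT against InR. With the replicate number as block *Prosalpha4* and *Rpn13* had adjusted p of 0.0589 and 0.0527 in HtlACT tissue. Among the brightest 5701 genes, where *Rpt3R* was not tested, 0 and 0 were called in HtlACT and InR tissue. With no fold limit 3 (2 higher, 1 lower) passed in HtlACT against control tissue and 1 in HtlACT against InR tissue.

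Scaling set the sign of the medians over 26 genes. In HtlACT against control tissue the median was -0.044 after quantile normalization, 0.18 after median centring and 0.24 with centring over dim genes too, against 0.07. In InR against control tissue it was 0.0063, 0.11 and -0.066, against 0.06, and in HtlACT against InR tissue -0.042, 0.090 and 0.32, against 0.02. Median centring moved the median of all genes to -0.04 in HtlACT tissue, against -0.15, and with no fold limit 11 of the 26 were then higher in HtlACT tissue (26.5% of all genes higher, 27.1% lower) and 1 in InR tissue (16.7% and 16.8%), whereas after quantile normalization 0 were higher and 2 lower in HtlACT tissue (23.6% and 28.9%). Centring over dim genes too, added after seeing the data, turned *Rpt4* between the glial tissues to 0.055 (adjusted p = 0.786). Over all genes, the share of calls that were higher in HtlACT against control tissue was 40.4% as deposited and 52.7% after median centring, and in HtlACT against InR tissue 45.7% as deposited, 59.8% after quantile normalization and 56.1% after median centring. With centring over dim genes too it was 59.7% in HtlACT against control, 38.1% in InR against control (58.4% as deposited) and 81.9% in HtlACT against InR tissue. The causes were not tested.

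Leaving out single arrays gave medians of 0.057 to 0.095, 0.026 to 0.10 (lowest without InR 3, highest without control 2) and 0.0034 to 0.072 (highest without InR 3). Leaving out control 2, InR 2 and InR 3, chosen after seeing the data, left 1 InR array, assumed to vary like the other groups, and gave 0.013 and 0 calls in InR against control and 0.074 in HtlACT against InR tissue. The *Rpt3R* difference stayed at -1.18 there, and without control 2 and InR 2 alone it was called (-1.19). Every probe set on its own gave nothing further, since each gene had 1. Signals near background left 12 paralogs untested.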
